A study of Mus musculus with 71 samples.

Results

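Expression of 8 genes that mark the subfields of the hippocampus was followed across 4 brain regions of mice that lacked GLP or G9a in forebrain neurons. The 8 genes were Prox1, Dsp, C1ql2 and Tdo2 (dentate gyrus), Wfs1, Fibcd1 and Spink8 (CA1), and Amigo2 (CA2 and CA3). They were found by gene symbol among the 18193 genes that the annotated probe sets of the array represent. The 8 genes had 15 probe sets. Each gene was read from its probe set with the highest mean over the 71 arrays.

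GLP (gene Ehmt1) and G9a (gene Ehmt2) are paired enzymes that place methyl groups on lysine 9 of histone H3, a mark of silenced genes. In the tissue experiments, Camk2a-Cre, which is driven by a promoter active in forebrain excitatory neurons, recombined GLPfl/fl or G9afl/fl alleles. Littermates with the same floxed alleles and no Cre were the controls, matched for age (10 to 14 weeks) and sex. Total RNA came from hippocampus, hypothalamus, striatum and cortex, with 4 arrays in each group, except 3 for the hippocampal controls of the G9a line and 2 for each cortical group of that line. Dissected tissue also holds cells in which this Cre is not active, and in such tissue fewer cells of a type and less RNA per cell cannot be told apart. A further 12 arrays held polyribosome-bound RNA of striatal medium spiny neurons. Those neurons carried a Drd1-bacTRAP or Drd2-bacTRAP tag. The groups labelled mutant combined G9afl/fl with Drd1-Cre or Drd2-Cre, the groups labelled control had the tag and G9afl/fl without Cre, and each group had 3 pools of 5 mice.

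The hippocampus is built from subfields with distinct principal neurons: granule cells in the dentate gyrus, and pyramidal cells in CA1, CA2 and CA3. Each of these cell types keeps a set of genes on for life that its neighbours keep low, and such genes are used to tell the subfields apart. Prox1 is the transcription factor that specifies granule cells and holds their identity. Dsp encodes desmoplakin, a protein that anchors intermediate filaments at desmosomes. C1ql2 encodes a secreted C1q-like protein of mossy fibre synapses. Tdo2 encodes tryptophan 2,3-dioxygenase, which opens the ring of tryptophan in the first step of the kynurenine pathway. Wfs1 encodes wolframin, a membrane protein of the endoplasmic reticulum. Fibcd1 encodes a receptor with a fibrinogen-like domain, Spink8 a Kazal-type serine protease inhibitor, and Amigo2 a leucine-rich-repeat adhesion protein.

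The promoters of 3 dentate genes are shown because Tdo2 was the one of the 3 that changed in the mutants. Each is the 250 bases before the gene's start in RefSeq (GRCm38.p6), written 5′ to 3′ on the gene's strand, with CG dinucleotides in capitals.
Tdo2, chr3:81975729-81975978, minus strand: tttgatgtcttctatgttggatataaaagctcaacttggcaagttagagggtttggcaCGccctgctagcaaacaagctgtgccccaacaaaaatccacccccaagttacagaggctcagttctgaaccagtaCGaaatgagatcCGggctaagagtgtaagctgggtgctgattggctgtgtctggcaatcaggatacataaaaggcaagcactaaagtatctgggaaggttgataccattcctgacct
Dsp, chr13:38151044-38151293, plus strand: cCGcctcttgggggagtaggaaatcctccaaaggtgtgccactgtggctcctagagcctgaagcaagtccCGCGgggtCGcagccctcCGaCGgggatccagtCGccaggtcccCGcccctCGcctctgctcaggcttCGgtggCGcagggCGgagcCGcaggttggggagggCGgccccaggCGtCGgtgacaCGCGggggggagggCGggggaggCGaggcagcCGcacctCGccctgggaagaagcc
C1ql2, chr1:120340332-120340581, plus strand: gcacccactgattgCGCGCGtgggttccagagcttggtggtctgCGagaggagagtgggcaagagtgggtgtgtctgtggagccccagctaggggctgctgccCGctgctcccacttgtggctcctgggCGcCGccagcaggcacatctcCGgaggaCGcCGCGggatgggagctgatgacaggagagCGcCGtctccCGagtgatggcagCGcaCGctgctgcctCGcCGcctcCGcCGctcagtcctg
The Tdo2 window held 3 CG dinucleotides, the Dsp window 22 and the C1ql2 window 20. The median over 32851 mouse promoter windows of this length was 6, and 37.8% of them had as few CG dinucleotides as Tdo2 or fewer. The Tdo2 window also held the letters TATAAA, which start 229 bases before the gene's start and occur on either strand in 12.4% of the windows. The first of 2 Prox1 windows held TATAAA as well, and the windows of the other members did not. The other members with a window in the table had 23 (Wfs1), 34 (Fibcd1) and 38 (Amigo2) CG dinucleotides, and the 2 Prox1 windows had 20 and 11. These counts describe the sequence and say nothing about methylation, which was not measured.

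All levels below are log2 intensities relative to the array's own median, so that a gene at 0 is as bright as the median probe set of that array. Levels of different genes are not compared, because probe sets differ in brightness. A change is the mean of the mutants minus the mean of their controls. A gene is called when limma's adjusted p is under 0.05, and it is tested only where it lies above the array median in at least as many arrays as the smaller group holds. The deleted genes checked the labels. The Ehmt1 signal in GLP mutants was 67.0% of the control level in hippocampus, 72.6% in striatum and 58.9% in cortex, and each of these falls was called. It was 89.8% in hypothalamus, with an adjusted p of 0.711. The Ehmt2 signal in tissue of G9a mutants was 29.6% to 49.2% of control and was called in all 4 regions. In the polyribosome pools it was 24.3% (Drd1, adjusted p = 0.943) and 94.5% (Drd2, adjusted p = 1.00) of control, so these groups are named here by their labels. In every array of the GLP line Xist exceeded the Y-linked genes. Each tissue group of the G9a line had 2 arrays with the Y-linked genes above Xist, of 4, 3 (hippocampal controls) or 2 (cortex). So did both Drd2 pool groups, whereas 3 of 3 Drd1 pools labelled mutant and 0 of 3 of their controls did.

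The first question is where the 8 genes were expressed in control mice. Prox1, Dsp, C1ql2, Tdo2, Fibcd1 and Spink8 were called brighter in hippocampus than in each of the other 3 regions in both lines. Wfs1 was called brighter against hypothalamus only, and Amigo2 against striatum and cortex only. In the GLP line, 7 of 8 members were higher in hippocampus than in hypothalamus, where 39.3% of genes tested were called higher. The count was also 7 of 8 against striatum (background 22.1%) and against cortex (32.9%). In the G9a line, 7 of 8 were higher than in hypothalamus (35.1%), in striatum (22.2%) and in cortex (35%). The 8 genes were chosen as hippocampal markers, so these counts describe the regions and do not test the label. In addition, Tdo2 and Spink8 were above the array median in hippocampus alone, so they entered all of these tests through hippocampus. The same held for Dsp and C1ql2 against cortex and for C1ql2 against striatum. In the GLP line it also held for Dsp against hypothalamus and striatum, and for Fibcd1 against hypothalamus.

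Dsp showed the widest contrast of the dentate genes. Its hippocampal level was 5.39 ± 0.30 (SD, n = 4) in controls of the GLP line and 6.12 ± 0.45 (n = 3) in those of the G9a line. In cortex it lay below the array median in both lines, at -1.95 ± 0.37 (n = 4) and -1.57 ± 0.14 (n = 2). Hippocampus therefore exceeded cortex at least 42.1-fold and at least 69.3-fold, where "at least" sets the lower group at the array median. For Dsp the control arrays of the lines overlapped in striatum and cortex. In hypothalamus Dsp was -2.13 ± 0.49 in GLP line controls and 0.77 ± 0.48 in G9a line controls. All 4 G9a line controls there (0.09 to 1.23) lay above all 4 GLP line controls (-2.67 to -1.49). Dsp was not alone in this: C1ql2, Wfs1, Amigo2 and Fibcd1 were also higher without overlap in the G9a line controls, and Tdo2 was lower without overlap. The share of all genes separated in this way was not computed. The Y-linked genes exceeded Xist in 0 of these 4 GLP line controls and in 2 of the 4 G9a line controls. Line, sex and processing cannot be told apart in these differences.

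C1ql2 was at 3.65 ± 0.33 and 3.91 ± 0.13 in hippocampus of the GLP and G9a line controls, and below the array median in striatum and cortex of both. In hypothalamus it stood between, at 0.35 ± 0.22 and 1.96 ± 0.14. Prox1 was above the array median in all 4 regions. Its hippocampal excess over the other regions was 1.19 to 2.04 on the log2 scale in the GLP line and 1.87 to 2.06 in the G9a line. Tdo2 was the dentate gene that lay above the array median in hippocampus alone among control tissues. Its control levels there were 2.08, 1.65, 1.67 and 1.07 in the GLP line and 0.84, 1.23 and 2.16 in the G9a line. In the control arrays of the other 3 regions it ran from -3.25 to -1.62.

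The CA1 genes did not share a regional pattern. Fibcd1 was at 3.82 ± 0.27 and 4.37 ± 0.02 in hippocampus, against -0.94 to 0.66 for the other control group means. Spink8 was at 2.29 ± 0.39 and 1.90 ± 0.88 in hippocampus and below the array median in every control array of the other regions. Wfs1 was bright in 3 of the 4 regions and lowest in hypothalamus. Its hippocampal mean was 6.46 ± 0.15 in the GLP line, beside 6.82 ± 0.22 in striatum and 6.16 ± 0.15 in cortex. Neither difference was called (hippocampus minus striatum -0.36, adjusted p = 0.0838; hippocampus minus cortex 0.31, adjusted p = 0.122). With the mouse number as a block, both were called, with adjusted p = 0.036 against striatum and 0.00312 against cortex. Same-numbered arrays of these tissues deviated together, but the labels do not say that they came from one mouse. In hypothalamus Wfs1 was at 3.75 ± 0.47 in the GLP line and 5.13 ± 0.14 in the G9a line.

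Amigo2 was as bright in hypothalamus as in hippocampus or brighter. Its hippocampal controls ran from 2.51 to 2.78 in the GLP line, where hypothalamus ran from 2.65 to 2.95 (hippocampus minus hypothalamus -0.11, 95% interval -0.47 to 0.25, adjusted p = 0.593). In the G9a line hippocampus ran from 3.20 to 3.65 and hypothalamus from 3.81 to 4.56, without overlap (-0.72, SE 0.19, adjusted p = 0.00123, where 25.5% of genes were called lower in hippocampus). Striatum and cortex were lower than hippocampus, by 1.58 and 1.98 in the GLP line and by 1.85 and 2.35 in the G9a line on the log2 scale.

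**Figure D1:**
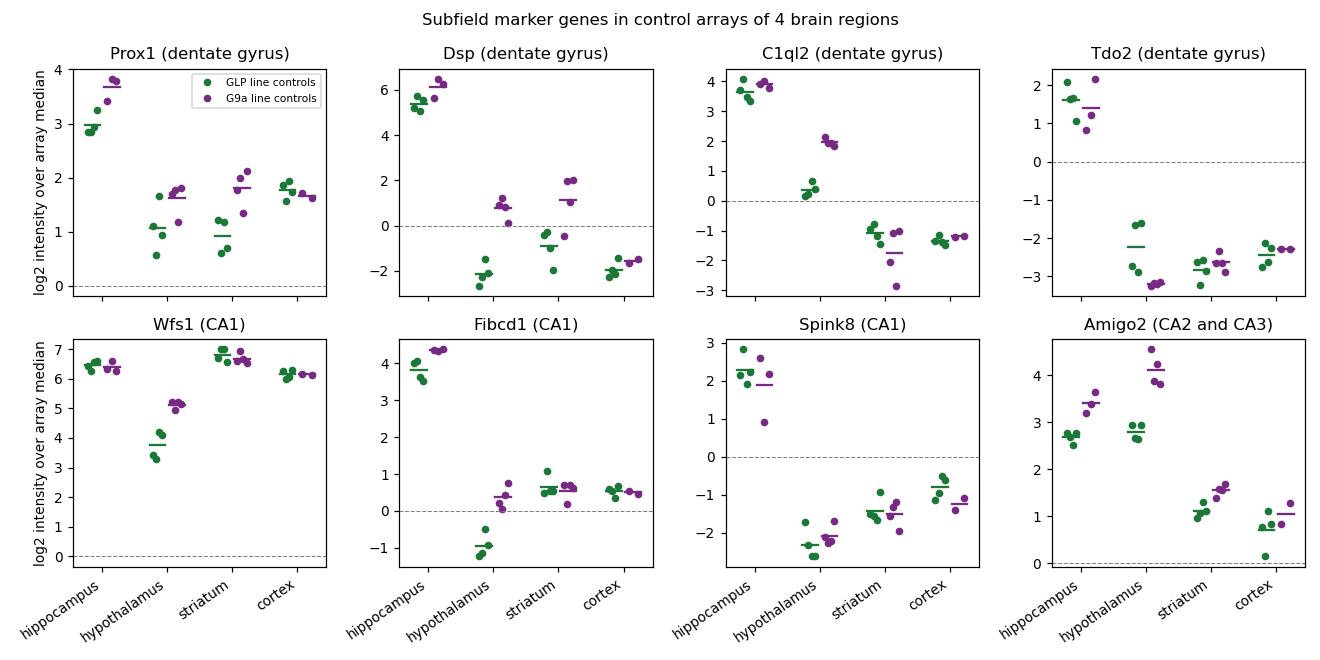
Each point is 1 control array; the vertical axis is the log2 intensity over the array's median (dashed at 0), the horizontal axis the brain region, and the lines are group means for the GLP line (green) and the G9a line (purple). Tdo2 and Spink8 lie above 0 in hippocampus only, Wfs1 is bright in 3 regions, and Amigo2 is as high in hypothalamus as in hippocampus.

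The second question is whether the hippocampal level of these genes changed when either enzyme was lost. Tdo2 rose in both mutants and was the only one of the 8 members called in either (1 of 8 in each). Over all genes tested, 1.73% were called higher after GLP loss and 2.25% after G9a loss, and 2.05% and 2.72% were called in either direction. The median change of the 8 members was -0.04 and -0.01, beside -0.02 and 0.03 for all genes tested.

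Tdo2 in GLP mutants stood at 3.15, 2.92, 3.60 and 3.09, and in their controls at 2.08, 1.65, 1.67 and 1.07. The lowest mutant exceeded the highest control, as for 3.3% of all genes. The change was 1.57 (SE 0.33, adjusted p = 0.00199), a 2.98-fold rise. In G9a mutants Tdo2 stood at 2.57, 3.15, 3.79 and 3.47, and in their controls at 0.84, 1.23 and 2.16. These groups did not overlap either, with all mutants higher, as for 5.69% of all genes. The change was 1.83 (SE 0.36, adjusted p = 0.000636), a 3.56-fold rise. The effects of the 2 deletions on Tdo2 in hippocampus differed by -0.26 (GLP minus G9a, 95% interval -1.24 to 0.73, adjusted p = 1.00). That interval leaves room for a sizeable difference in either direction.

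The remaining 2 Tdo2 probe sets gave the same direction. Probe set 1449337_at rose by 1.22 (adjusted p = 0.00603) after GLP loss and by 1.92 (adjusted p = 9.86e-06) after G9a loss. Probe set 1455770_at rose by 1.93 (adjusted p = 4.6e-13) and 2.27 (adjusted p = 9.87e-15), although its group means stayed below the array median in mutants and controls. These p-values were adjusted over all probe sets. Each of the 3 Tdo2 probe sets thus had an adjusted p under 0.05 in both hippocampal comparisons. This fit of the probe sets had no filter on low values, which 1455770_at would not have met by its group means.

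The other 3 dentate genes were not called. Prox1 ran from 2.50 to 3.18 in GLP mutants and from 2.84 to 3.24 in their controls, a change of -0.20 (95% interval -0.61 to 0.20), and it changed by -0.25 (-0.69 to 0.18) after G9a loss. C1ql2 changed by -0.19 (-0.70 to 0.32) and -0.02 (-0.58 to 0.53). The intervals of both genes exclude a change of 1 on the log2 scale in either direction. Dsp had the wider intervals: its changes were 0.52 (-0.30 to 1.33) and 0.40 (-0.48 to 1.28), with mutant and control arrays overlapping in both lines. Its second probe set 1435494_s_at gave 0.60 and 0.44, also not called.

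Among the CA1 genes, Fibcd1 changed by 0.12 (-0.25 to 0.49) and 0.01 (-0.40 to 0.41), and Wfs1 by -0.24 (-0.57 to 0.10) and -0.30 (-0.67 to 0.07). Spink8 had positive differences in both lines that were not called. It stood at 2.33, 3.14, 2.99 and 3.03 in GLP mutants and at 2.16, 2.83, 1.93 and 2.22 in controls (change 0.58, SE 0.26, adjusted p = 0.54). In the G9a line it stood at 2.17, 2.47, 3.17 and 2.99 in mutants and at 2.61, 0.92 and 2.17 in controls (change 0.80, SE 0.28, adjusted p = 0.152). The value in the G9a line rests on single controls. Without the lowest control (replicate 2, at 0.92) the change was 0.31 (adjusted p = 0.885), and without the highest (replicate 1, at 2.61) it was 1.15 and was called (adjusted p = 0.0273).

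Amigo2 had negative differences in hippocampus of both mutants that were not called. GLP mutants stood at 2.19, 2.45, 2.04 and 2.48 and controls at 2.78, 2.70, 2.51 and 2.77. All mutants lay below all controls, as did 2.12% of all genes. The change was -0.40 (95% interval -0.76 to -0.04, adjusted p = 0.528). In the G9a line mutants ran from 2.56 to 3.24 and controls from 3.20 to 3.65, overlapping by 1 mutant array, with a change of -0.51 (-0.90 to -0.12, adjusted p = 0.198). With the mean of its 2 probe sets, the Amigo2 changes were -0.18 (adjusted p = 0.861) and -0.20 (adjusted p = 0.54). Its second probe set, 1447769_x_at, was below the array median in all arrays and changed by 0.04 and 0.10. None of the 8 members differed between the effects of GLP and G9a loss in hippocampus at an adjusted p under 0.05, where 0.157% of genes tested did. The smallest unadjusted p among the 8 was 0.584, for Spink8.

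**Figure D2:**
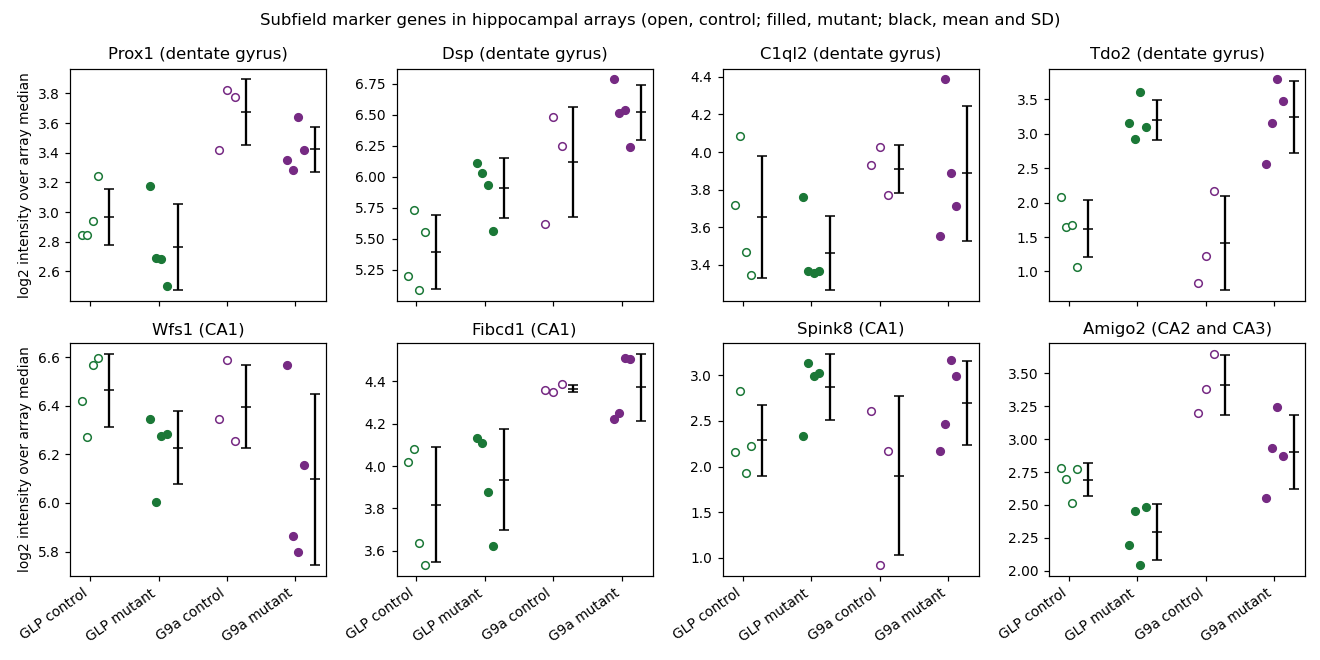
Each point is 1 hippocampal array (open, control; filled, mutant; green, GLP line; purple, G9a line), the vertical axis is the log2 intensity over the array median, with its own range in each panel, and the black bars are the mean and SD. Tdo2 mutants lie above all controls in both lines, while the other 7 genes were not called.

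Markers of another tissue moved with GLP loss in hippocampus. Of 12 choroid plexus genes tested there, 11 rose, where 1.73% of all genes tested were called higher. The median change of the 12 was 3.09. Among those that rose were Clic6, a chloride channel protein (2.47, adjusted p = 4.2e-06), the bicarbonate transporter gene Slc4a5 (2.95, adjusted p = 6.83e-05), the clotting factor gene F5 (3.26, adjusted p = 9.48e-05) and the water channel gene Aqp1 (3.34, adjusted p = 0.000141). The control means of Slc4a5 (-1.76), F5 (-1.08) and Aqp1 (-1.41) lay below the array median, so the size of these 3 changes is poorly defined. The control means of the rest of the 12 lay above it. The mean over the 12 genes ran from 3.55 to 4.47 in GLP mutants and from 0.17 to 2.58 in their controls. Ttr, the most abundant choroid plexus gene, averaged 10.0 and 9.18. In the G9a line the same mean ran from -0.02 to 0.74 in mutants and from -0.55 to -0.25 in controls, also without overlap. Cldn2, a tight junction gene, was the 1 of 6 tested that rose there (3.06, adjusted p = 0.0129), where 2.25% of all genes tested were called higher. Its control mean also lay below the array median. In G9a mutants, where the Tdo2 change was 1.83, Otx2, Aqp1, Folr1, Kcne2, F5 and Slc4a5 were below the array median. The rest of the 12 were above it, with higher means than in controls. These were Ttr (8.085 against 6.832), Kl (2.26 against 1.33) and Kcnj13 (1.10 against -0.56). Cldn2 (1.63 against -1.44), Clic6 (1.27 against 0.92) and Sostdc1 (1.43 against 1.00) were the others. In the GLP controls, replicates 1 and 4 had the higher choroid plexus means (2.58 and 2.19), and they held the highest and the lowest Tdo2 value of that group (2.08 and 1.07). The part of the choroid plexus signal in the Tdo2 result of either line was not tested.

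The third question is whether the changes were seen outside the hippocampus. Tdo2 was higher in every mutant array than in every control array of the same line in all 8 tissue comparisons, as were 0.115% of all genes (21 of 18193). In cortex of the GLP line, mutants stood at 0.31, 0.46, 0.66 and 0.73 and controls at -2.76, -2.14, -2.63 and -2.25. In cortex of the G9a line, mutants stood at 0.85 and 0.67 and controls at -2.27 and -2.29. In both, controls lay below the array median and mutants just above it, so Tdo2 met the filter on low values through the mutants alone. The changes were 2.98 (SE 0.33, adjusted p = 3.87e-09) and 3.05 (SE 0.47, adjusted p = 3.1e-05). As folds over the array median these were at least 1.45-fold and at least 1.70-fold, because the level under the array median is poorly defined. With a floor at the array median, the cortical changes were 0.54 (adjusted p = 0.198) and 0.76 (adjusted p = 0.344) and neither was called.

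In striatum and hypothalamus Tdo2 did not reach the filter on low values and was not tested. Striatal mutants ran from -0.28 to 0.29 in the GLP line and from -0.48 to 0.73 in the G9a line, against -3.24 to -2.57 and -2.89 to -2.33 in controls. Mutants of the GLP line ran from -1.33 to -0.23 in hypothalamus, and those of the G9a line stood at -0.92, 0.33, -2.21 and -1.84, the widest spread of any Tdo2 group. Hypothalamic controls ran from -2.90 to -1.62 and from -3.25 to -3.16. The differences were 2.78 and 2.69 in striatum and 1.48 and 2.04 in hypothalamus. Fitted over all genes with no filter, they had adjusted p-values of 3.21e-08, 7.59e-08, 0.00906 and 6.92e-05. In these fits 1.07%, 1.61%, 0.753% and 1.33% of genes were called higher. The Tdo2 mutant means were -0.05 and 0.06 in striatum and -0.75 and -1.16 in hypothalamus (GLP and G9a line). The differences thus lie almost wholly under the array median, where the level is poorly defined.

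The probe sets of Tdo2 did not give the same picture outside the hippocampus. Probe set 1449337_at had positive differences in all 4 regions of both lines, from 0.63 to 1.92. Probe set 1455770_at differed by 0.01 to 0.24 in hypothalamus, by 0.12 and 0.00 in striatum, and by 0.29 and 0.81 in cortex, with all its group means in these regions at -2.10 or lower. When the 3 probe sets were averaged, Tdo2 fell under the filter in cortex and was not tested there.

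**Figure D3:**
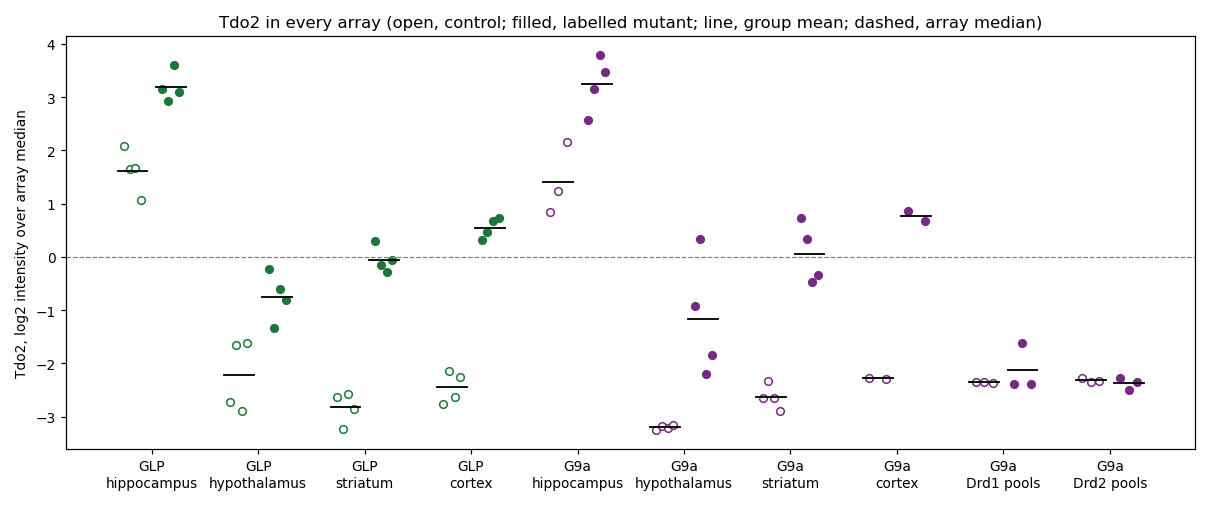
Each point is 1 array or pool (open, control; filled, labelled mutant), the vertical axis is the Tdo2 log2 intensity over the array median (dashed at 0), the horizontal axis the line and tissue, and the bars are group means. Mutants lie above controls in all 8 tissue pairs, and the Drd1 and Drd2 pools stay below -1.6.

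**Figure D4:**
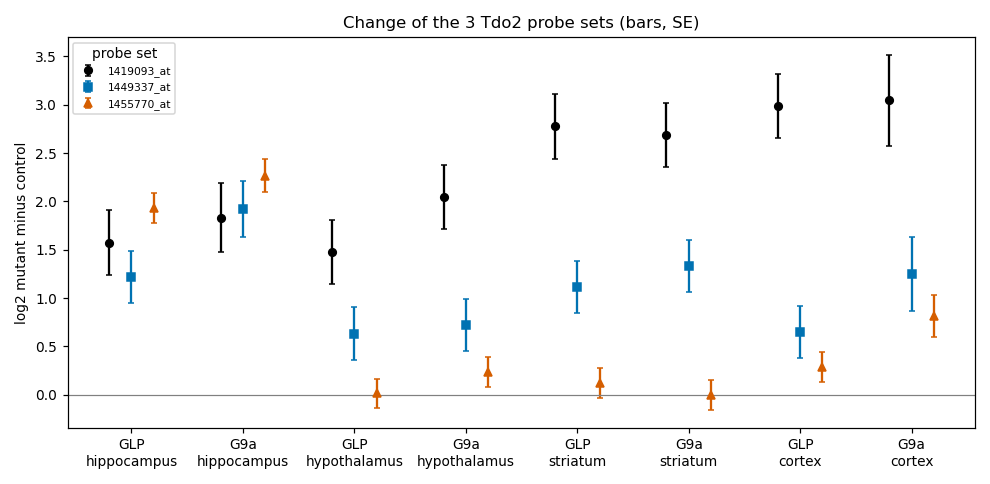
The change (mutant minus control, log2, vertical axis) of each of the 3 Tdo2 probe sets in the 8 tissue comparisons (horizontal axis), with bars of 1 SE. All 3 probe sets are between 1.22 and 2.27 in hippocampus, and 1455770_at lies near 0 in hypothalamus and striatum.

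Of the other members, Wfs1 was the one called outside the hippocampus. It rose in hypothalamus of GLP mutants, which stood at 4.04, 4.66, 4.61 and 4.31, against 3.43, 3.28, 4.21 and 4.09 in controls. The groups overlapped, since 1 mutant lay below 2 controls. The change was 0.65 (SE 0.17, adjusted p = 0.0339), 1.57-fold, in a comparison where 1.01% of genes were called. The call was lost in a fit of these 2 groups alone (adjusted p = 0.654) and, leaving out 1 array at a time, without mutant 2 (0.216), mutant 3 (0.195), control 1 (0.245) or control 2 (0.379). Ehmt1 itself was not called lower in this region. In hypothalamus of the G9a line Wfs1 changed by 0.13 (-0.20 to 0.47).

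Amigo2 had positive differences in the other regions of the GLP line. It changed by 0.35 in striatum, where mutants (1.35 to 1.71) lay above controls (0.97 to 1.29), as for 2.48% of all genes, by 0.35 in hypothalamus and by 0.49 in cortex (95% interval 0.13 to 0.84, adjusted p = 0.309). None was called. A test of whether the GLP effect differed over the 4 regions gave adjusted p-values of 0.192 for Amigo2, 0.140 for Tdo2 and 0.127 for Wfs1, with 1.08% of genes called. No member was called in the same test for G9a loss either, where 1.37% were called (smallest unadjusted p 0.0341, for Amigo2). In cortex of either line Tdo2, which met the filter there through its mutants alone, was the 1 of 5 members tested that was called (1.54% and 0.728% of genes), so this count is a description only. In striatum of either line and hypothalamus of the G9a line no member was called, of 4, 5 and 6 tested (1.67%, 3.02% and 2.34% of genes). Without mutant 2 of that hypothalamic group, Dsp was called lower (-1.31, adjusted p = 0.0159). Its 4 mutant values there were 0.11, 1.54, -0.91 and -0.85.

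**Figure D5:**
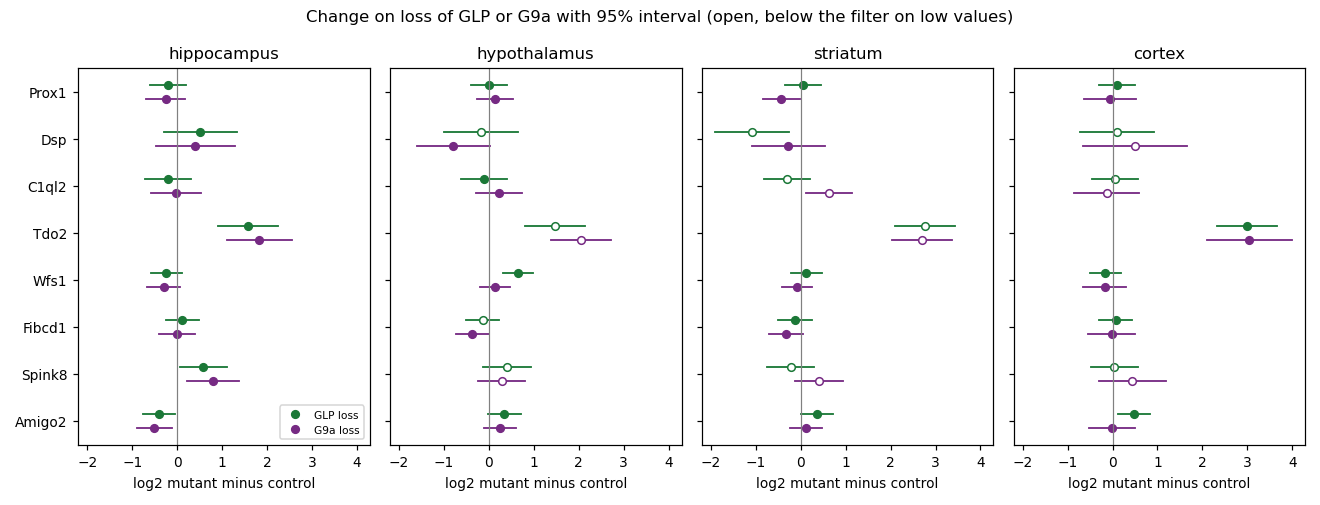
Each panel is 1 region; the horizontal axis is the change (mutant minus control, log2) with its 95% interval for each of the 8 genes after GLP loss (green) or G9a loss (purple), and open points mark genes below the filter on low values. Tdo2 is the one gene with intervals above 0 in every region and both lines.

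In the polyribosome pools of medium spiny neurons, Tdo2 was low throughout: it ran from -2.50 to -1.62 in all 12. Wfs1 was bright, at 7.04 to 7.39 in Drd2 pools and 5.79 to 6.62 in Drd1 pools, and 11.2% of all genes were lower in every Drd1 pool than in every Drd2 pool. Prox1 ran from 2.26 to 3.36 in Drd1 pools and from -0.25 to 1.00 in Drd2 pools, the opposite order, which 16.7% of all genes showed without overlap. No member was called in the Drd1 (of 6 tested) or Drd2 (of 5 tested) comparison, where 0.0249% and 0.0165% of genes were. The second Drd1 pool labelled mutant stood apart, with Amigo2 at -1.24 beside 1.09 and 1.47 in the other two, and it had the highest Tdo2 value of the pools. Dsp was at 2.85, 2.73 and 1.97 in Drd2 pools labelled mutant and at 2.05, 0.46 and 0.57 in their controls (change 1.49, 95% interval 0.23 to 2.75, adjusted p = 1.00).

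The rest of the subfield markers and the pathways of the members put these results in context. Over all genes tested in hippocampus, 0.317% were called lower after GLP loss and 0.469% after G9a loss. Of 13 other dentate granule genes tested after GLP loss and 14 after G9a loss, Calb1, the calcium-binding protein calbindin, was the one called; it fell by 0.42 (adjusted p = 0.0124) and by 0.40 (adjusted p = 0.031). The list medians were -0.08 and -0.08, beside -0.02 and 0.03 for all genes. Of 10 other CA1 and CA2 genes, Lefty1, an antagonist of Nodal signalling, fell by 0.82 (adjusted p = 6.93e-06) and by 1.21 (adjusted p = 2.24e-09), and the mannosidase gene Man1a fell by 0.49 after G9a loss (adjusted p = 0.0183). Of 12 CA3 and hilar genes none was called after GLP loss and Homer3, a postsynaptic scaffold gene, fell by 0.66 after G9a loss (adjusted p = 0.0355). No list of subfield markers had a called rise in either hippocampal comparison. None of 6 and 7 immature dentate neuron genes was called.

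Among 13 tryptophan and kynurenine genes on the array, few were bright enough to test. Over all genes tested in hippocampus, 1.73% were called higher after GLP loss and 2.25% after G9a loss. In hippocampus none of 3 was called after GLP loss, and of 4 after G9a loss Ido2, a second enzyme that opens tryptophan, rose by 2.95 (adjusted p = 1e-12). In cortex of GLP mutants, where 1.31% of all genes tested were called higher, 2 of 5 rose. These were Tph2, the neuronal enzyme of serotonin synthesis (1.79, adjusted p = 0.00204), and Ido1, the third tryptophan-opening enzyme (0.93, adjusted p = 0.0306). Ido1 also rose in striatum after G9a loss (0.96, adjusted p = 0.0147). Among genes related to the other members, in hippocampus, the desmosomal cadherin gene Dsg2 rose after G9a loss (0.96, 1 of 4 tested), as did Cbln1, a secreted relative of C1ql2 (1.61, 1 of 9). Atf6, a sensor of endoplasmic reticulum stress, rose by 0.46 and 0.62 in the 2 lines (1 of 13 tested in each). In hippocampus no gene was called among the transcription factors listed with Prox1 (0 of 12 in each) or the genes listed with Amigo2 (0 of 2). The same held for the relatives of Spink8 (0 of 1) and of Fibcd1 (0 of 5 and 0 of 6). In striatum of G9a mutants 1.87% of all genes tested were called higher. Of the transcription factor genes listed with Prox1 2 of 9 rose there, Neurod2 (1.79, adjusted p = 0.00351) and Neurod6 (2.88, adjusted p = 0.00987). Of the listed C1q-like ligands and their receptors 2 of 9 rose there, Cbln1 (1.21, adjusted p = 0.0323) and the kainate receptor gene Grik4 (0.91, adjusted p = 6.41e-05). Grik4 is also among the CA3 and hilar genes. Of 2 genes listed with Amigo2, the channel subunit gene Kcnip4 fell by 0.41 (adjusted p = 0.0485), where 1.15% of genes tested were called lower. The cortical excitatory marker Tbr1 rose in the same comparison (1.99, adjusted p = 0.0277), with 2 of 8 such genes called higher. Some markers of other cells rose in hippocampus too. Of 7 cortical excitatory genes tested after G9a loss Cux2 (1.04) and Lamp5 (0.65) rose, with a list median of -0.03, and of 8 endothelial and meningeal genes Col1a2 (1.18) and Lum (1.11) rose, with a median of 0.46. After GLP loss Igf2 (1.16) was the 1 of 8 endothelial and meningeal genes that rose (median 0.16), Pdyn (0.66) the 1 of 7 striatal genes (median 0.07) and the histamine enzyme gene Hdc (0.76) the 1 of 4 hypothalamic genes (median 0.34). No astrocyte, oligodendrocyte, microglial or inhibitory neuron marker was called in either hippocampal comparison. The part of such markers in the results for the 8 genes was not tested.

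The genes whose levels ran most like those of the members were found by the correlation of 20 group means, over 13371 genes above the array median in at least 1 group. Many groups share a tissue and a line, so these values describe the groups and carry no test. Tdo2 ran most like Olfm4, which encodes the secreted glycoprotein olfactomedin 4 (r = 0.954, rho = 0.926), then Fam160a1 (0.882) and Vwa3b (0.865). Spink8 ran most like Lct (0.966), Fam160a1 (0.950) and Krt2 (0.950). Fibcd1 ran with Jun (0.957), Nr3c2 (0.949) and another member, Spink8 (0.947), and Dsp with Fibcd1 (0.934), Arpc5 (0.934) and Jun (0.927). C1ql2 ran with Gm11681 (0.953), Prox1 with Rtl3 (0.915), Wfs1 with Prep (0.951) and Amigo2 with Pnck (0.929). Dsp, Fibcd1 and Spink8 thus lay close to each other.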

How the data were processed

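The 71 arrays hold 45101 probe sets as linear intensities that the authors made with GCRMA, per the submitters' processing notes. In the deposited tables every array's median intensity is 1. The lowest intensity is 0.0271 and array maxima run from 879.3 to 2816. Summarisation and scaling to the median were thus done before deposit, and the number of arrays limits the precision. Log2 of these intensities was taken with no floor, and low values under the median mostly reflect background. Probe sets were named from the platform annotation: 34945 had 1 gene symbol, 932 several and 9160 none, and 64 controls were left out. limma 3.58.1 in R 4.3.3 (group means, eBayes with a trend) was fitted once over the 16 tissue groups (59 arrays) and once over the 4 pool groups, with Benjamini-Hochberg adjustment over all genes tested. Besides the members, Ehmt1 and Ehmt2, the genes named are up to 4 called genes of each list in each hippocampal comparison, smallest p first, and for each member the 3 genes most alike in group means; further names were chosen after their values were seen. The members, lists and tests were chosen with earlier results of these data known. Tested on simulated data, the fit recovered 95% of 2-fold and 100% of 4-fold changes for GLP loss in hippocampus (11640 genes, 5.34% of calls false). For G9a loss in cortex it recovered 80% and 100% (11662 genes, 6.74%). Changes were planted only in genes with control levels above the array median, with independent noise. These shares thus do not cover Tdo2 outside the hippocampus, and they need not hold for a gene with a wide spread such as Dsp.

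Tables give no gene coordinates; promoter windows and coordinates are from RefSeq (GRCm38.p6). Same-numbered samples of some pairs of groups deviated together, with every correlation over 0.1. In GLP line controls these were hippocampus with striatum (0.173 to 0.464) and with cortex (0.362 to 0.413). The same pairs in GLP mutants had 0.120 to 0.441 and 0.401 to 0.462. Hippocampus with striatum of G9a mutants had 0.273 to 0.351, and the Drd2 pools 0.161 to 0.493. Samples of different numbers were not correlated for reference. Any pairing is thus read from the data, since the labels number the mice without saying that tissues came from one animal. One hypothalamic control of the G9a line carries different mouse numbers in its labels, and its title was followed. Alternatives were a floor at the median, no filter, the compared groups alone, the replicate number as a block, quantile normalization, no trend, the mean of a gene's probe sets, and each array left out in turn. Replicates are separate mice or pools, per the labels.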

Additional observations from a re-analysis of the deposited data

Results flagged for a closer look

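Of 104 sets of 4 arrays (1 gene in 1 group), 5 had an array whose distance from the rest passed Dixon's test, about the share that chance gives (1 in 20). C1ql2 in hippocampus of GLP mutants was 3.76 in replicate 1 and 3.35 to 3.37 in the other arrays. Fibcd1 in striatal controls was 0.18 in replicate 2 of the G9a line, beside 0.63 to 0.70, and 1.09 in replicate 2 of the GLP line, beside 0.50 to 0.54. Spink8 was -1.42 in replicate 1 of the striatal G9a mutants, beside -1.01 to -0.98, and -2.51 in replicate 4 of the hypothalamic GLP mutants, beside -1.76 to -1.67; both lie below the array median. After GLP loss every Amigo2 value in hippocampus was below its controls (change -0.40) and every value in striatum above its controls (0.35). The difference between these 2 regions was not tested by itself, and over all 4 regions the adjusted p was 0.192.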

How the results depend on the processing

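The rise of Tdo2 in hippocampus kept its call in every alternative run, from 1.57 to 1.64 after GLP loss and from 1.76 to 2.01 after G9a loss; leaving out 1 array gave 1.39 to 1.73 (highest adjusted p 0.0185) and 1.55 to 2.21 (0.0216). With a floor at the array median, members called in cortex fell from 1 to 0 in both lines (Tdo2 0.54 and 0.76). Members called in hippocampus after G9a loss rose to 2 (Spink8 0.80, adjusted p = 0.0104). With this floor Tdo2 was also called for a GLP or a G9a effect that differs over regions (1 member each, adjusted p = 6.17e-05 and 3.52e-05). The floor itself shrinks the Tdo2 changes outside the hippocampus, where controls lay below the array median, so these calls are a description only. With the mean of probe sets 0 members were called in either cortex. With no filter Tdo2 was also called in hypothalamus (2 members after GLP loss, 1 after G9a loss) and striatum (1 each). In the compared groups alone Wfs1 in hypothalamus after GLP loss was lost (0 members, 0.65, adjusted p = 0.654) and Tdo2 gained a GLP effect that differs over regions (1 member, adjusted p = 0.0189, chosen after seeing the data). In that fit, which had no floor, the Tdo2 changes were larger in cortex and striatum than in hippocampus, the reverse of the order with the floor. With the replicate block that Wfs1 call was lost too (0 members, adjusted p = 0.446), although those numbers were not shown to pair the samples. The block also gave Wfs1 a call against striatum in G9a line controls (-0.33, adjusted p = 0.0117), and it turned the near-zero changes of C1ql2 and Fibcd1 after G9a loss in hippocampus to 0.034 and -0.038; beside the Wfs1 calls given with the regional levels, it changed no other call of a member. In GLP line controls Wfs1 was also called in the compared groups alone (against striatum, adjusted p = 0.0264; against cortex, 0.0122) and, against striatum, without striatal control 4 (0.0481). After G9a loss in hippocampus, leaving out 1 array gave -0.19 to 0.086 for C1ql2 and -0.041 to 0.056 for Fibcd1. The next ranges are also from leaving out 1 array. There were 1 to 2 members called in hippocampus after G9a loss and 0 to 1 in hypothalamus of either line (Wfs1 after GLP loss 0.50 to 0.80). For the GLP effect over regions there were 0 to 1 (Wfs1, adjusted p = 0.0239 to 0.0475 without mutant 1, control 3 or control 4 of hypothalamus). The background moved more: genes called for G9a loss in hypothalamus were 2.34% in the fit of all tissues, 0.17% in the compared groups alone and up to 17.4% with 1 array left out. The compared groups alone also gave 0.338% for GLP loss in hypothalamus, 0.97% in striatum and 3.15% in cortex, and 1.58% and 2.67% for G9a loss in hippocampus and cortex. Signal near or below the array median limits Tdo2 outside the hippocampus.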

Other observations

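The 2 genes on each side of Tdo2 on chromosome 3, chosen after their values were seen, were Pdgfc, a growth factor gene, Ctso, a cathepsin gene, Asic5, an ion channel gene, and Gucy1b1, a subunit of guanylate cyclase. Their differences between mutants and controls in the 8 tissue comparisons ran from -0.15 to 0.41 on the log2 scale, against 1.48 to 3.05 for Tdo2. Asic5 stayed below the array median in all of these groups. Ptpn14, a phosphatase gene next to Prox1, was higher in hippocampus without overlap of arrays after GLP loss (1.61 against 1.03) and after G9a loss (1.32 against 0.53), as were 3.3% and 5.69% of all genes, where Prox1 changed by -0.20 and -0.25; this was also chosen after the values were seen.

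The balance between dentate and CA1 members within an array depended on Tdo2, the member that changed. Without it, the mean of Prox1, Dsp and C1ql2 minus the mean of the 3 CA1 genes ran from -0.50 to 0.08 in GLP mutants and from -0.28 to -0.07 in their controls, and from -0.09 to 0.53 in G9a mutants and from -0.11 to 0.83 in theirs. With Tdo2 among the dentate genes, the same difference ran from -0.68 to -0.22 in GLP mutants and from -0.82 to -0.74 in their controls, without overlap, and from -0.34 to 0.14 in G9a mutants and from -0.99 to -0.06 in theirs. No test was made of either version.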
